A study of Mus musculus with 6 samples.

Results

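Muscle fibres contract when calcium leaves the sarcoplasmic reticulum, the calcium store of the fibre, and relax when a membrane pump returns it. The 8 genes described here encode that pump in 3 forms (Atp2a1, Atp2a2 and Atp2a3), 2 small inhibitors of it (Sln and Pln), 2 calsequestrins that hold calcium inside the store (Casq1 and Casq2) and the cytosolic buffer parvalbumin (Pvalb). They were chosen by name, with earlier results of these data known. Every array probe that the platform annotation assigns to 1 of these symbols was taken. This gave 14 probes of 45281 on the array, for 8 of the 19057 genes with a named probe.

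The muscle was the tibialis anterior, which is mostly fast-twitch and lies at the front of the lower hindlimb, of male mice 3 months old. There were 3 arrays labelled TG, from mice labelled as transgenic for PGC1b, a transcriptional coactivator encoded by Ppargc1b, and 3 arrays labelled WT. The promoter of the transgene, the strain and the number of animals are not given in the sources used here. Total RNA of each sample was measured on 1 Illumina Mouse WG-6 v2 array, and nothing in the labels ties the arrays to separate animals. The p-values then cover only array-to-array spread, and that spread may be technical.

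Fast fibres are known to use Atp2a1, Casq1 and much parvalbumin, which soaks up calcium quickly. Slow fibres and the heart are known for Atp2a2 and Casq2, and Atp2a3 is best known from blood cells and other non-muscle cells. Sarcolipin, the product of Sln, and phospholamban, the product of Pln, are short membrane peptides that bind the pump and lower its calcium uptake. In the mouse, Sln is known to be high in the atria and in slow muscle and low in fast muscle, and Pln is known from the ventricle, slow muscle and smooth muscle.

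Signals were background-corrected, quantile normalized and put on a log2 scale, and tested two-sided with limma. A change is the mean of the TG arrays minus the mean of the WT arrays. A gene rose or fell where its p-value, adjusted over all 9978 genes tested, was under 0.05. A probe was above background on an array where its detection p-value was under 0.05. The number of probes above background was 17525 to 17604 on the TG arrays and 15338 to 15691 on the WT arrays, and median signals were 73.3 to 78.8 and 74.6 to 75.0, the level that probes without a target show. Ppargc1b itself, read by 1 probe, had signals of 281.3, 373.4 and 309.8 on the TG arrays against 497.2, 648.7 and 708.9 on the WT arrays. It was thus lower where the label names it as the transgene, with a change of -1.32 (adjusted p = 0.000734), and where on the mRNA the probe lies is not known here. Every direction given below goes by the labels, so a TG array is an array labelled TG.

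Of the 8 members, 7 had a probe above background on at least 3 arrays and were tested. Sln, Atp2a2 and Casq2 rose, Casq1 fell, and Atp2a1, Atp2a3 and Pvalb did not pass the threshold. Over all genes tested 56.3% passed, 28.1% higher and 28.2% lower in the TG arrays, so that 4 of 7 members is close to the share among all genes. With arrays scaled by their all-probe medians, 3766 genes were higher and 1606 lower, in place of 2801 and 2812. All genes then had a median change of 0.19 in place of -0.03. With quantile normalization the median change of the 7 members was 0.08, beside -0.03 for all genes. In whole muscle, more cells of a type and more RNA per cell cannot be told apart in any of these differences.

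**Figure D1:**
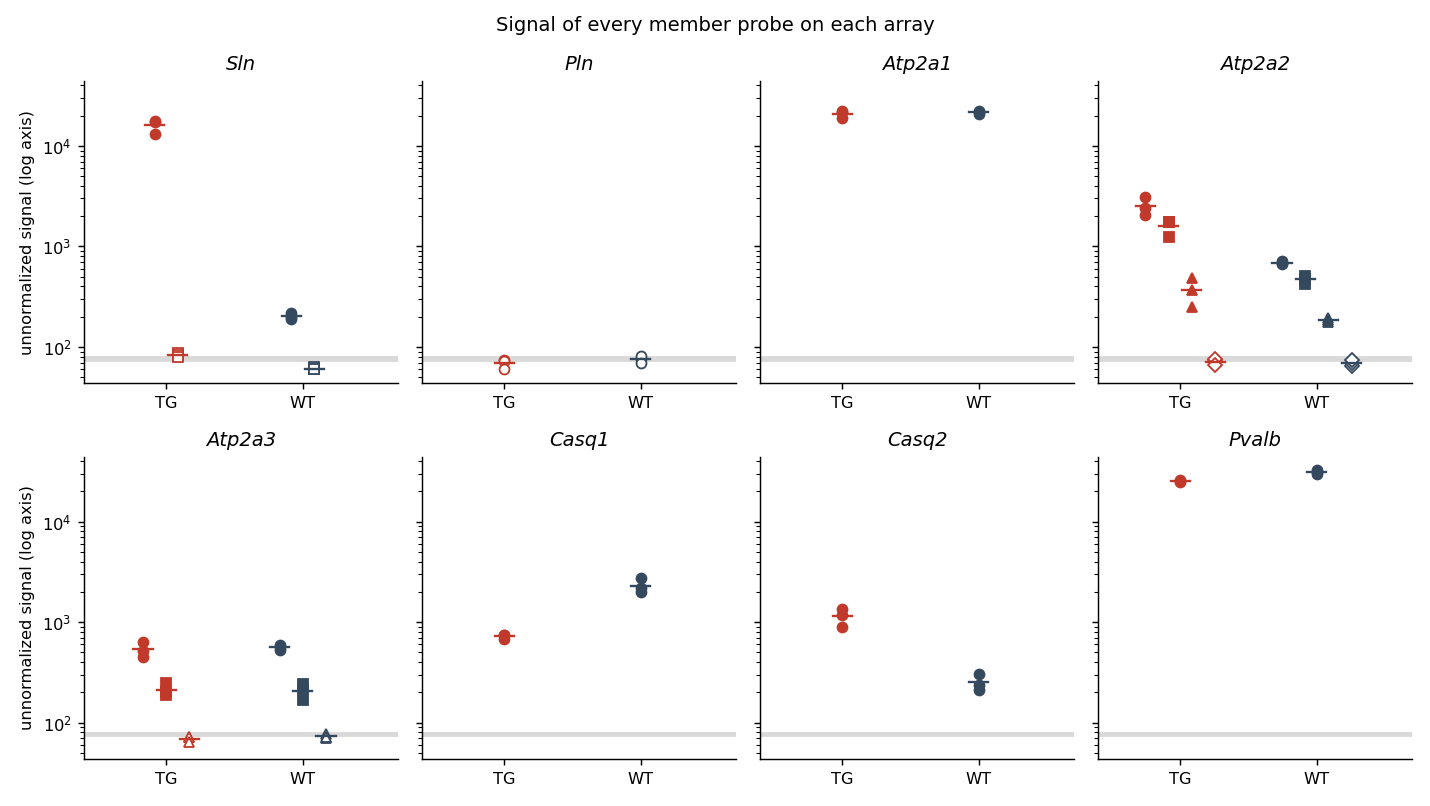
Unnormalized signal (vertical log axis) of each probe of the 8 genes on the 3 TG arrays (red, left) and the 3 WT arrays (blue-grey, right). Each marker shape is 1 probe, filled symbols are above background on that array, short lines are group means and the grey band is the range of the array medians, 73.3 to 78.8. The brighter Sln probe lies between 13244.4 and 17569 on the TG arrays, and the Pln probe lies near the grey band throughout.

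Of the pump inhibitors, Sln had signals of 17115.9, 17569 and 13244.4 on the TG arrays against 218.8, 188.3 and 197.7 on the WT arrays, by the probe ILMN_2918875. The groups were far apart, and the probe was above background on all 6 arrays. The gene lies at chr9:53850251-53853849 (GRCm38.p6). On the normalized log2 scale the level was 14.02 ± 0.16 on the TG arrays and 7.40 ± 0.10 on the WT arrays (SD, n = 3 each), a change of 6.62 (95% confidence interval 6.34 to 6.90, adjusted p = 2.28e-08, 98.5-fold). Of the 9978 genes tested, 0 had a larger fitted change, although the rise of genes not above background on any WT array is known only as a lower bound. On each TG array only 84 to 116 of the 45281 probes were brighter than this one, whereas 7458 to 8022 were brighter on each WT array.

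A further Sln probe, ILMN_2662878, was not above background on any array. Its signals were 86.7, 82.8 and 80.1 on the TG arrays (detection p-values of 0.0705, 0.0897 and 0.0662) and 62.5, 59.7 and 60.7 on the WT arrays (0.754, 0.891 and 0.902). The groups did not overlap, as in 61.3% of the 17166 probes tested, and the values lay on either side of the array medians. The annotation gives both probes the same transcript accession, and which parts of it they match is not known here, so the rise of Sln rests on 1 probe.

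Pln, the phospholamban gene, had 1 probe, with signals of 73.9, 72.5 and 60.9 on the TG arrays and 75.6, 81.5 and 69.2 on the WT arrays. Its lowest detection p-value was 0.0930, so no level above background was seen in either group and no change was computed. The high signal of Sln thus stood beside a Pln probe at background on the same arrays.

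Sln, Pln and Casq2 are also genes of the heart, and Pln of smooth muscle, so markers of those tissues were read as well. Of 14 heart markers with a probe, 7 were not above background on any array, among them the atrial light chain gene Myl7, the cardiac troponin I gene Tnni3 and the cardiac transcription factor gene Nkx2-5. Of the 7 tested, 3 rose and 2 fell, with a median change of 0.48 and summed signals of 7348 to 7672 on the TG arrays against 3284 to 4477 on the WT arrays. The natriuretic peptide genes Nppb and Nppa, above background only on the TG arrays, were at least 5.89-fold and 2.47-fold higher there, Myl4, the atrial and embryonic light chain, rose by 1.80, and Myh6, the atrial myosin heavy chain, had a change of -0.64. A bound of this kind sets the TG mean against the lowest signals above background on the WT arrays, or the probe's own where higher. Nppb and Nppa were kept through the group where they were higher, so the count and median of the heart list lean upward. Of 14 smooth muscle and pericyte genes 6 fell and 1 rose, with a median change of -0.34 and summed signals of 23069 to 24681 against 20365 to 20526. Abcc9, a potassium channel subunit gene on this list, fell by 1.54 and the intermediate filament gene Des rose by 0.71. Kcnj8 and Notch3 fell by 0.42 and 0.46, while Rgs5, Pdgfrb and Cspg4 did not pass, with changes of -0.22, 0.13 and 0.17. Des and Myl4 are also genes of skeletal muscle, and the part of these lists in the Sln result was not tested.

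Genes of developing and regenerating muscle, in which Sln and Myl4 are known to be expressed, rose in 10 of 13 cases and fell in 1. Their median change was 1.22, with summed signals of 13050 to 15033 on the TG arrays and 4712 to 5082 on the WT arrays. The perinatal myosin gene Myh8 rose by 3.85, Chrng, the fetal acetylcholine receptor subunit, by 3.54 (above background on 1 WT array), the adhesion gene Ncam1 by 2.48 and the growth factor gene Igf2 by 2.46. Mymk and Chrnd, also counted as risen, were above background only on the TG arrays and so were kept through that group alone. The bound for Mymk was 1.44-fold, and none could be given for Chrnd. The satellite cell genes Pax7 and Myf5 were not above background on any array, and the part of the genes of this list in the rise of Sln was not tested.

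Of the pumps, Atp2a1, the pump of fast fibres, had signals of 21661.1, 22154.4 and 18893.6 on the TG arrays against 20761.5 to 22479.6 on the WT arrays. The groups overlapped. The log2 level was 14.41 ± 0.05 on the TG arrays and 14.33 ± 0.05 on the WT arrays (SD, n = 3 each), a change of 0.08 (95% confidence interval -0.15 to 0.31, adjusted p = 0.508). This is not evidence that the gene stayed the same. The change was -0.10 with arrays scaled to the median of all probes (adjusted p = 0.484), and -0.35 and past the threshold with arrays scaled to the probes above background on all arrays (adjusted p = 0.0205). The probe reached 69.3% to 72.6% of the array maximum on the TG arrays and 63.2% to 71.7% on the WT arrays.

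Atp2a2, the pump of slow fibres, heart and, in a longer splice form, most other cells, was higher by every probe above background. The gene lies at chr5:122453513-122502225. ILMN_1245425 had signals of 3089.8, 2396.6 and 2070 on the TG arrays against 683.3, 665.5 and 709.8 on the WT arrays. ILMN_1239742 had 1746.8, 1746.3 and 1255.4 on the TG arrays against 477.7, 510.2 and 426.5. ILMN_2450031, annotated by a cDNA accession other than that of the first pair, had 485.5, 368.1 and 248.3 on the TG arrays against 178, 192.1 and 187.4. In all 3 probes the groups were apart, and the third TG array was the lowest of its group.

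The changes of those probes were 1.79 (SE 0.13), 1.68 (SE 0.14) and 0.83 (SE 0.20), or 3.47-fold, 3.20-fold and 1.78-fold. The adjusted p-values were 8.98e-06, 1.60e-05 and 0.00746 in a fit over 17166 probes, of which 53.4% passed, 25.5% as higher and 27.9% as lower, and 61.3% had groups that did not overlap. The size of the rise thus depended on the probe, although its direction did not. Which splice forms of Atp2a2 the probes match is not known here. The remaining Atp2a2 probe, ILMN_1242459, was not above background on any array, with signals of 65.4 to 75.6 on the TG arrays and 64.7 to 74.4 on the WT arrays.

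Atp2a3 had signals of 518.4, 634.7 and 450.3 on the TG arrays and 526.4, 565.4 and 590.9 on the WT arrays by ILMN_2688236, and the groups overlapped. Its change was -0.31 (95% confidence interval -0.64 to 0.02, adjusted p = 0.0960). A dimmer probe, ILMN_2900462, had 190.1 to 249 on the TG arrays and 167.7 to 243.4 on the WT arrays, a change of -0.31 with an interval of -0.79 to 0.16 (adjusted p = 0.233 over probes). The third probe, ILMN_2638017, was at background on all arrays. Without TG replicate 2 the change of the gene was -0.45 and past the threshold (adjusted p = 0.0236), and without WT replicate 1 that of the dimmer probe was -0.53 and past it (adjusted p = 0.0378).

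Atp2a3 is known from lymphocytes, platelets and endothelium, whose markers went different ways. Of 8 lymphocyte and platelet markers 5 rose and 0 fell, with a median change of 0.71 and summed signals of 549 to 1047 on the TG arrays and 330.1 to 370.2 on the WT arrays. Cd3g, Cd3d, Cd2 and Nkg7, all counted as risen, were above background only on the TG arrays. They were kept through the group where they were higher, so the count and median of this list lean upward. Nkg7, a gene of killer lymphocytes, was at least 3.39-fold higher, but the bounds for Cd3g, Cd3d and Cd2 were only 1.17-fold, 1.26-fold and 1.01-fold. Cd4, Cd8a and Ms4a1 were not above background on any array. Of 14 endothelial markers 4 fell and 1 rose, with a median of -0.19 and summed signals of 12308 to 14098 against 13106 to 13440. Vwf, the endothelial clotting factor gene, fell by 0.90. Macrophage markers rose in 12 of 13 cases and fell in 0, with a median of 2.38 and summed signals of 16107 to 27994 against 2741 to 3177, and Lgals3, the galectin-3 gene, rose by 3.64. Ctss, counted as risen, was above background only on the TG arrays and at least 3.33-fold higher. Cd163 had a change of -0.75 and did not pass (adjusted p = 0.0526), and Itgam was not above background on any array. Atp2a2 is also a gene of these cells, and their part in its rise was not tested.

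**Figure D2:**
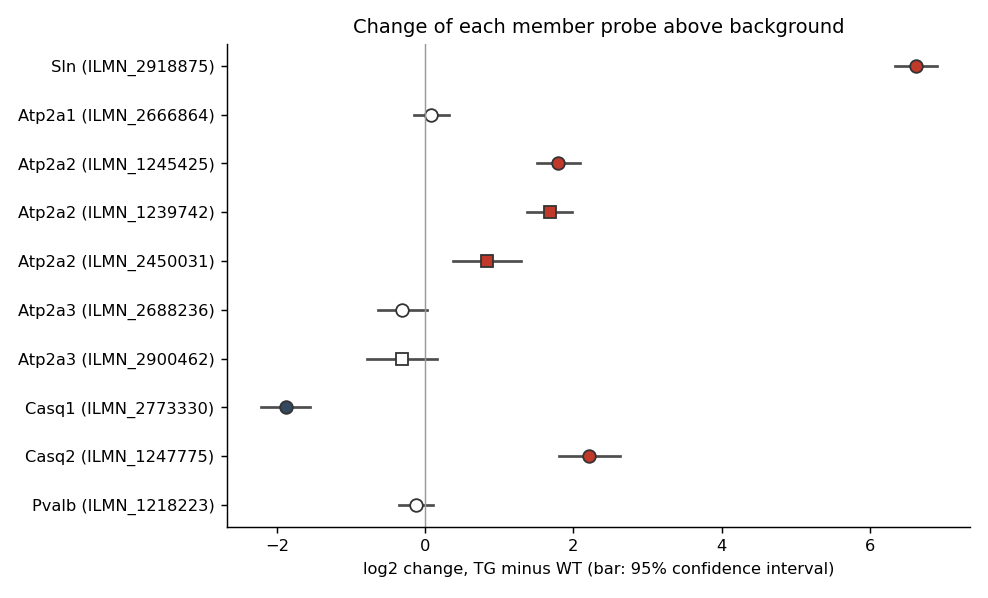
Log2 change (horizontal axis, TG minus WT) of each member probe above background, with its 95% confidence interval. Circles are the probes that stood for their gene and squares the dimmer probes; filled symbols passed the threshold, red where higher and blue-grey where lower in the TG arrays. The changes run from -1.88 for Casq1 to 6.62 for Sln.

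The calsequestrins are the main calcium-holding proteins inside the store, Casq1 in fast fibres and Casq2 in the heart and slow fibres, and they changed in opposite directions. Casq1 had signals of 685.7, 736.8 and 746.9 on the TG arrays against 2725.4, 2169.9 and 2006.5 on the WT arrays. Casq2 had 1348.3, 1177.2 and 898.7 on the TG arrays against 237, 305.8 and 213.3 on the WT arrays. Neither gene's groups overlapped, as in 63.8% of all genes tested.

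Casq1 fell by 1.88 on the log2 scale, to 9.29 ± 0.20 on the TG arrays against 11.17 ± 0.20 on the WT arrays (SD, n = 3 each, adjusted p = 1.52e-05), and was 3.69-fold lower. Casq2 rose by 2.21, with 9.99 ± 0.20 on the TG arrays and 7.78 ± 0.33 on the WT arrays (SD, n = 3 each, adjusted p = 1.98e-05), 4.63-fold. Among all genes tested, 114 had a lower fitted change than Casq1 and 221 a higher one than Casq2, with the same limit for genes at background in 1 group. Atp2a2 had 384 genes above it.

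The upstream sequences of the 2 calsequestrin genes are shown because the genes moved in opposite directions. They are the 250 bases before the annotated start, 5′ to 3′ on the gene's own strand, from RefSeq on GRCm38.p6: Casq2 at chr3:102086165-102086414 on the plus strand and Casq1 at chr1:172219896-172220145 on the minus strand. Capitals mark matches, on either strand, to the E-box CANNTG, the site of myogenic factors, and to the MEF2 consensus, the site of MEF2 factors of muscle.
Casq2: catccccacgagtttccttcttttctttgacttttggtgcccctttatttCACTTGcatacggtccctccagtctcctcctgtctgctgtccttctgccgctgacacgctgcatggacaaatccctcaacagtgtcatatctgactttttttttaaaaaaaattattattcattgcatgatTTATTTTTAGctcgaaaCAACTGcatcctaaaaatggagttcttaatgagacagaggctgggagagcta
Casq1: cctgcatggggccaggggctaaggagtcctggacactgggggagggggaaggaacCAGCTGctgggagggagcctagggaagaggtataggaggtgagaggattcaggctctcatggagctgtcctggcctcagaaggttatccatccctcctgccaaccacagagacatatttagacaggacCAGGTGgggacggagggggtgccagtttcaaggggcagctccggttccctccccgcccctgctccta
Casq2 held 2 E-boxes and 1 MEF2 match, which lies 69 to 60 bases before the start, and no match overlapped another. Casq1 held 2 E-boxes and 0 MEF2 matches. Of 32841 promoter windows of this length, 66.2% held an E-box and 2.92% a MEF2 match. The letters AAGGTCA, the core of the site of estrogen-related receptors, through which PGC-1 coactivators are known to act, were in 4.08% of windows and in neither of these. Promoter windows were given for 6 of the 8 members: Pln, Atp2a1, Atp2a3, Casq1, Casq2 and Pvalb. A MEF2 match was also in 1 of the 2 Pvalb windows, 180 to 171 bases before the start, and Pvalb did not rise. The windows of Pln, Atp2a1 and Atp2a3 held 0 MEF2 matches. A match is a description of letters and shows no binding.

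Parvalbumin, the fast-fibre calcium buffer, had signals of 26019.2, 25465.4 and 25023.5 on the TG arrays and 32293.3, 31397.5 and 30055.6 on the WT arrays. The groups did not overlap before normalization, nor after it, as in 63.8% of all genes tested. The ratio of mean signals before normalization was 0.816. Pvalb was among the brightest probes, with 9 to 13 brighter ones on each TG array and 2 or 3 on each WT array.

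After quantile normalization, which gives each rank the same value on every array, the log2 level was 14.71 ± 0.03 on the TG arrays and 14.84 ± 0.01 on the WT arrays (SD, n = 3 each). The change of -0.12 (95% confidence interval -0.35 to 0.10) did not pass the threshold (adjusted p = 0.309). It passed where arrays were scaled in place of being given 1 distribution: the change was -0.34 with the median of all probes (adjusted p = 0.0228) and -0.60 with the probes above background on all arrays (adjusted p = 0.00158). The maximum signal of the arrays was 27247.7 to 30508.9 for TG and 31340.7 to 34205.1 for WT, and its part in these values was not tested.

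The fast and slow members were then compared within each array, where the scaling of 1 array against another largely cancels. The level of a probe says nothing about that of another probe, so only the difference between the groups is read. Casq2 minus Casq1 was 1.08, 0.75 and 0.29 on the TG arrays against -3.74, -2.96 and -3.48 on the WT arrays in log2 units. The difference between groups was 4.10, a 17.1-fold shift of the pair towards Casq2.

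Atp2a2 minus Atp2a1 was -2.99, -3.32 and -3.31 on the TG arrays against -4.93, -4.93 and -4.89 on the WT arrays. The difference was 1.71, or 3.27-fold. Sln minus Atp2a1 was -0.29, -0.35 and -0.52 on the TG arrays against -6.79, -7.01 and -6.99 on the WT arrays, a difference of 6.54. In each of the 3 pairs the groups were apart, and the exact two-sided permutation test over arrays gave p = 0.1, and no smaller p is possible with 3 arrays a group. From signals before any normalization the differences were 3.83, 1.91 and 6.35. A ratio of this kind shows unequal change and not which of the genes changed.

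**Figure D3:**
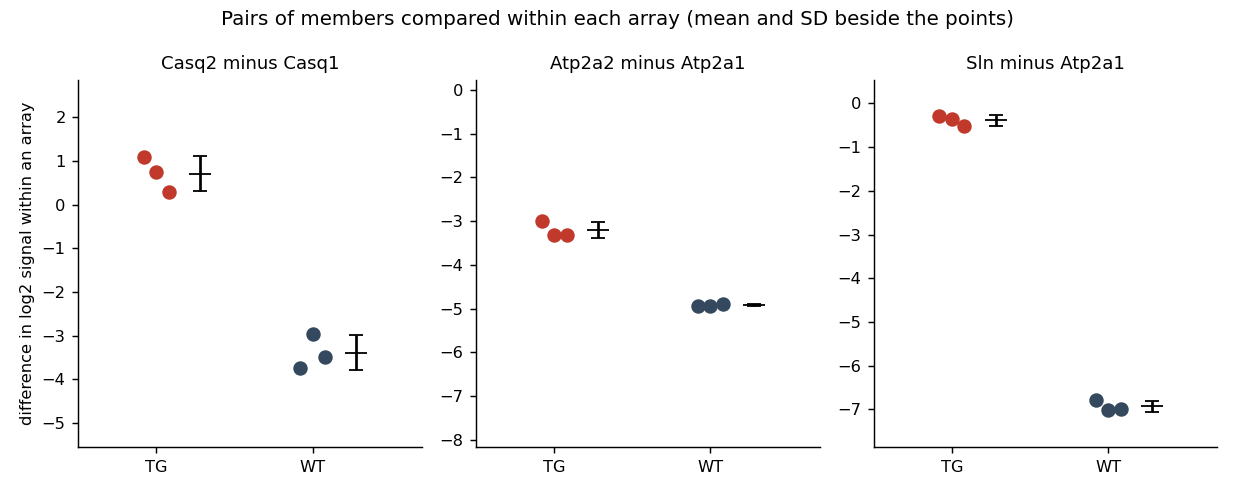
Difference in log2 signal between 2 members within each array (vertical axis), for Casq2 minus Casq1, Atp2a2 minus Atp2a1 and Sln minus Atp2a1, with TG arrays in red on the left and WT arrays in blue-grey on the right. Points are arrays, and the bars beside them give mean and SD of the 3 arrays. The 3 panels span the same number of log2 units, and only the gap between the groups can be read, which was 4.10, 1.71 and 6.54.

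Other genes of calcium handling were read from 7 lists, of which 83 distinct genes were tested. In these, 35 fell (42.2%), 22 rose (26.5%) and 26 did not pass, against 28.2% lower and 28.1% higher among all genes, and the median change was -0.20 against -0.03. Among 14 genes of calcium release and of the triad, where the surface membrane meets the store, 13 fell, 0 rose and the median was -1.23. The junctophilin gene Jph2 fell by 2.65 and Jph1 by 2.14, the calcium channel subunit gene Cacng1 by 1.90 and Stac3, which couples the channel to release, by 1.79. Ryr1, the release channel of the store into which calsequestrin feeds calcium, fell by 1.22 (adjusted p = 5.76e-05).

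Among 14 other regulators of the pump 7 fell, 2 rose and 5 did not pass, with a median of -0.33. Ppp1r1a, an inhibitor of protein phosphatase, fell by 4.38, and the calmodulin kinase genes Camk2a and Camk2g, whose products phosphorylate phospholamban and sarcolipin, fell by 2.85 and 1.79. The related Camk2d rose by 0.66 (adjusted p = 0.00541), and S100a1, a calcium sensor that stimulates the pump, rose by 0.73. Hrc, a calcium-binding protein of the store that binds the pump, fell by 0.70. Smim6, which encodes the inhibitor endoregulin, was at background on all arrays. The inhibitor gene Mrln and the activator gene Strit1 had 0 probes under these symbols in the annotation used here.

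Further calcium-binding proteins were read in 2 lists. Of 9 of the reticulum and Golgi 6 rose and 1 fell, with a median of 0.54. Calr3 rose by 1.20, the disulfide isomerase gene Pdia3 by 1.08 and the calumenin gene Calu by 0.68, while Sdf4, of the Golgi, fell by 0.68. Calr, the calreticulin gene, which encodes the main calcium buffer of the reticulum outside muscle, rose by 0.44 (adjusted p = 0.0263). Of 10 cytosolic calcium-binding proteins 7 rose and 2 fell, with a median of 0.64. S100a11 rose by 1.12, the sorcin gene Sri by 1.06 and S100a4 by 0.93, while the calmodulin gene Calm3 fell by 1.27. S100 genes are also genes of macrophages and fibroblasts, and the macrophage markers given above moved in the same arrays, so their part was not tested.

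A list of 14 genes of calcium exit and entry held mostly genes of the surface membrane, along with the release channel genes Itpr2 and Itpr3 of the reticulum and the mitochondrial exchanger gene Slc8b1. Of these, 4 fell, 2 rose and 8 did not pass, with a median of -0.02. Atp2b2, a calcium pump of the surface membrane, was above background only on the TG arrays and at least 2.22-fold higher, Slc8b1 rose by 0.49 (adjusted p = 0.0157), the store sensor gene Stim2 fell by 1.60 and the entry channel genes Orai1 and Orai3 fell by 0.92 and 0.78. Of 8 genes of mitochondrial calcium uptake 3 rose and 2 fell, with a median of 0.08: Letm1 rose by 1.16 and Smdt1, a subunit of the uniporter, by 0.49, while the carrier gene Slc25a25 fell by 2.09 and the porin gene Vdac3 by 0.74. The groups overlapped for Slc25a25, with 7.50 ± 1.27 on the TG arrays and 9.59 ± 0.71 on the WT arrays in log2 units (SD, n = 3 each). The count of fallen genes in this list was 1 without TG replicate 1, TG replicate 2 or WT replicate 3, and with a trended robust variance. Of 15 genes of calcineurin, a calcium-activated phosphatase, and its targets 6 fell and 3 rose, with a median of 0.08. The catalytic subunit gene Ppp3cb fell by 1.41, Nfatc3 by 1.12 and Nfatc1 by 1.08, while Ppp3cc, another catalytic subunit gene, rose by 0.87.

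**Figure D4:**
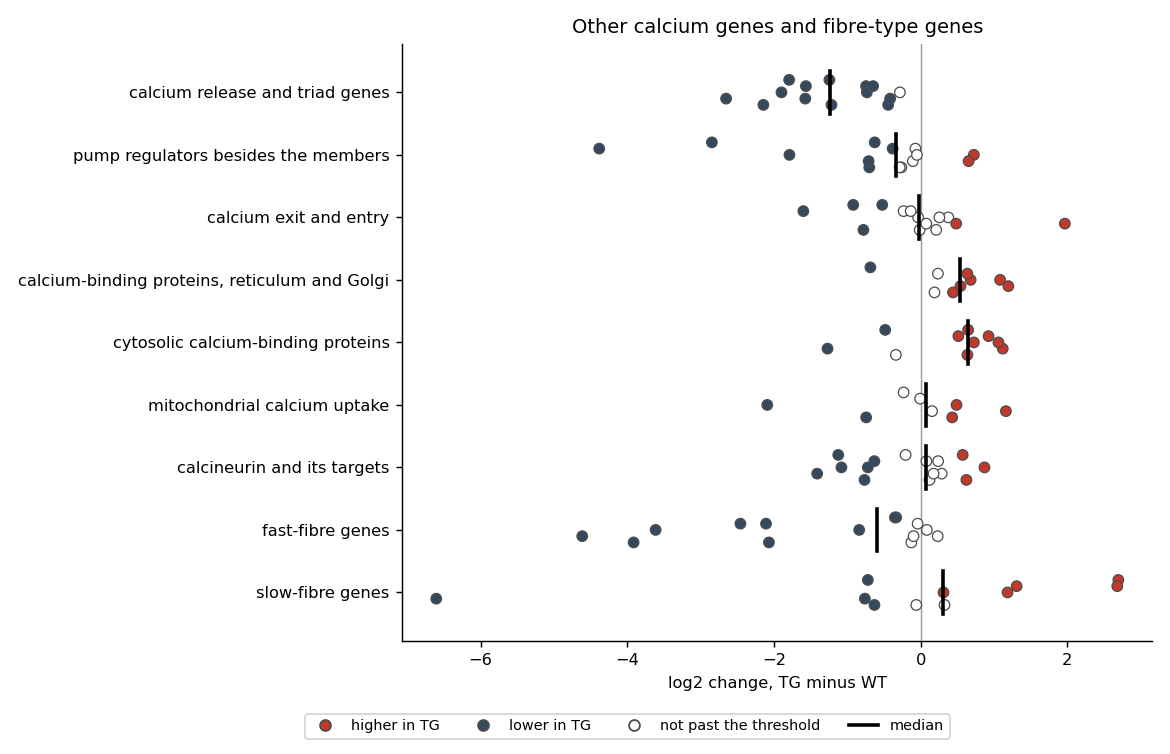
Log2 change (horizontal axis, TG minus WT) of each gene tested in 7 calcium lists and 2 fibre-type lists. Red points were higher and blue-grey points lower in the TG arrays past the threshold, white points did not pass, and black bars are list medians, from -1.23 for calcium release and triad genes to 0.64 for cytosolic calcium-binding proteins.

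The labelled tissue was checked against fibre-type genes, which also bear on the fast and slow forms above. All 14 fast-fibre genes with a probe were measured, with summed signals of 150416 to 158456 on the TG arrays and 237914 to 241555 on the WT arrays, and 9 fell and 0 rose, with a median of -0.59. Myoz3, a Z-disc gene, fell by 4.62, the IIB myosin heavy chain gene Myh4 fell by 3.91, the fast α-actinin gene Actn3 fell by 3.61 and the muscle phosphorylase gene Pygm by 2.46. Of 11 slow-fibre genes 5 rose and 4 fell, with a median of 0.31 and summed signals of 55230 to 70054 against 45936 to 53157. The troponin C gene Tnnc1 rose by 2.70 and the muscle LIM protein gene Csrp3 by 2.68, Tnni1, the slow troponin I gene, was above background only on the TG arrays and at least 1.83-fold higher, and the slow light chain gene Myl3 fell by 6.61. The slow myosin gene Myh7 had 3 probes, none above background on any array, and Myh2, of IIA fibres, had 0 probes. With arrays scaled to the probes above background on all arrays, 13 of the 14 fast-fibre genes fell, beside 2957 of the 9978 genes tested. Atp2a1 was past the threshold too in that setting, as given above. Casq1 fell under either scaling, and Atp2a2 and Casq2 rose with part of the slow-fibre genes. Of 4 Schwann cell and nerve genes 2 fell and 1 rose (median -0.19), and the myelin gene Mbp fell by 0.64, with groups that overlapped. Of 5 fat cell genes 2 rose and 1 fell (median 0.32). Cidec rose by 1.82 and the adiponectin gene Adipoq by 1.71, while the brighter Lpl fell by 0.45. The summed signals of this list were lower on the TG arrays, at 12488 to 13676 against 16799 to 17952 on the WT arrays. The sum mostly follows the brightest genes, Lpl and Car3, and not Adipoq or Cidec. Their log2 levels were 13.06 and 11.75 on the TG arrays and 13.51 and 12.37 on the WT arrays, for Lpl and Car3 in turn. The change of Car3, -0.61, did not pass.

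The genes most like Sln, the member with the largest rise, and Casq1, the member with the largest fall, were found by the root mean square difference of log2 values over the 6 arrays, each gene centred on its own mean. For Sln the nearest was Tmprss13 at 0.520, followed by Rnf208 (0.618), Dhx58 (0.802), Cplx1 (0.872) and Fcgr4 (0.875). Rnf208, Dhx58 and Fcgr4 had changes of 5.46, 5.08 and 4.89, with Dhx58 above background on 1 WT array and Fcgr4 on 2. Tmprss13 and Cplx1 were above background only on the TG arrays and at least 30.2-fold and 17.9-fold higher, and a rise known only as a lower bound cannot be ranked against that of Sln. Casq1 had close neighbours: Cmbl at 0.0537, H4c6 at 0.0647, Stac3 at 0.0784, H4c17 at 0.108 and Me1 at 0.116, with changes of -1.95 to -1.79. The measure mostly follows the size of the difference between the groups.

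**Figure D5:**
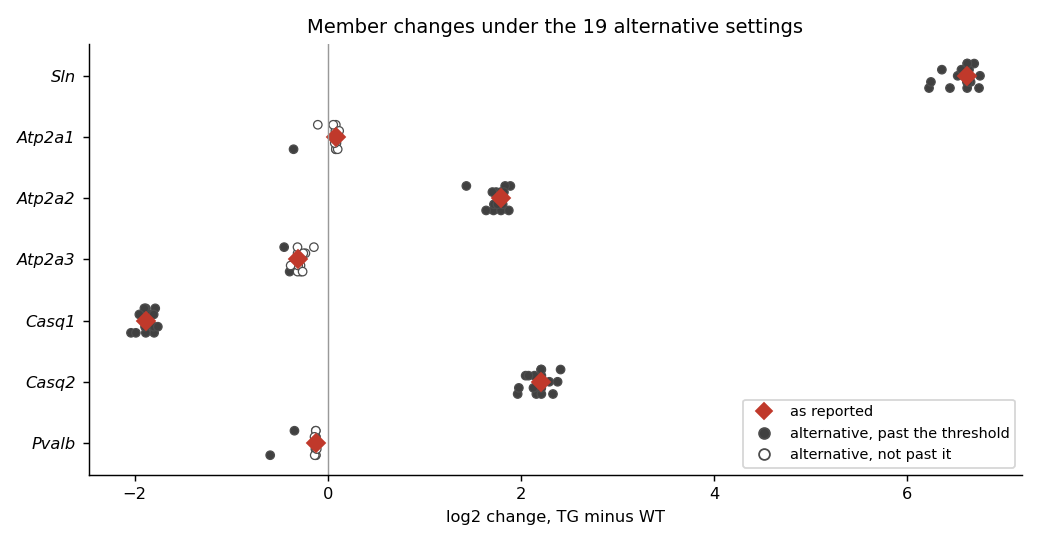
Log2 change (horizontal axis, TG minus WT) of each of the 7 members tested, as reported (red diamonds) and under 19 other settings of the processing (circles, filled where past the threshold). Sln, Atp2a2, Casq1 and Casq2 kept their side of 0 and of the threshold under every setting, while Atp2a1 lies on both sides of 0, at -0.35 to 0.12, and Pvalb and Atp2a3 passed in 2 settings each.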

How the data were processed

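Per the file headers and labels, the authors deposited an unnormalized probe intensity with a detection p-value for each array, and a second table of intensity values that are background-subtracted and quantile normalized. GenomeStudio is named in the submitters' processing notes; its settings are not given in the sources used here. Each detection p-value the authors deposited sets each probe against that array's negative controls.

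Intensities were corrected with normexp, its background parameters inferred from the detection p-values, with an offset of 16, quantile normalized and put on a log2 scale (limma 3.58.1, R 4.3.3). Differences of dim probes are compressed by the offset, and those of the brightest probes can be changed by quantile normalization. Probes with a detection p-value under 0.05 on at least 3 of 6 arrays were kept, 17166 of 45281. A gene above background in only 1 group passes through that group and can hardly change the other way. List counts and medians include such genes. The platform annotation gave 34885 probes 1 symbol, 18 more than 1 and 10378 no symbol, and 34807 matched the RefSeq table by Entrez ID, with 0 symbols changed. The brightest probe by mean stood for its gene. Genotypes were compared with lmFit and eBayes over 9978 genes, and again over all probes kept, with Benjamini-Hochberg adjustment, and every adjusted p is from limma. Within-array pairs were compared with an exact permutation test over arrays. The pair Sln minus Pln was left out because Pln was not above background. Precision is limited by the number of arrays, 3 per group.

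The members and the 17 lists (265 entries, 187 tested) were chosen with earlier results of these data known. Named genes were the members, up to 4 called genes of each list by size of change, Ppargc1b and the 5 nearest profiles. These profiles were those nearest to the members with the largest rise and fall, leaving out clone-type names. Ryr1, Camk2d, Hrc, Calr, Slc8b1, Mymk and Chrnd were named after their values were seen. Kcnj8, Notch3, Rgs5, Pdgfrb, Cspg4, Car3, Ctss, Cd163, Cdh15, Myod1 and Myf6 were also named after their values were seen. So were the genes named as not above background or without a probe. Summed signals add the normalized signals of a list's genes tested, less the offset. The 19 alternatives changed the background correction, offset, normalization, value table, the filter, how probes of a gene were summarised, the variance model, the array weights, the block and which arrays entered. No slide or scan batch was used as a block, since the sources used here name none.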

Additional observations from a re-analysis of the deposited data

How the results depend on the processing

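Sln, Atp2a2, Casq1 and Casq2, and the 2 dimmer Atp2a2 probes, kept their direction and their side of the threshold under every alternative run for them (19 for genes, 18 for probes), with changes of 6.23 to 6.76 for Sln, 1.44 to 1.89 for Atp2a2, -2.04 to -1.76 for Casq1 and 1.97 to 2.41 for Casq2. The 3 within-array pairs kept their direction in 15 alternatives each. With scaling to the all-probe median, the Atp2a1 change was -0.10, that of Pvalb -0.34 and past the threshold, and that of the Atp2a3 probe ILMN_2900462 0.0080. In that setting 1606 genes fell in all. Among calcium exit and entry genes 6 rose and 2 fell, 6 calcineurin genes rose, and 1 cytosolic gene fell. With arrays scaled to the probes above background on all arrays, Atp2a1 changed by -0.35, Atp2a3 by -0.39 and Pvalb by -0.60, each past the threshold, and 4 mitochondrial uptake genes fell. For the other moves the cause was not tested: without a filter 1 triad gene rose and 1 cytosolic gene fell, with the mean of all probes 1 pump regulator rose, and with a trended robust variance 1 mitochondrial uptake gene fell.

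Leaving out 1 array at a time gave Atp2a3 changes of -0.45 to -0.23 and ILMN_2900462 changes of -0.53 to -0.15, past the threshold without TG replicate 2 and without WT replicate 1. Counts over these 6 runs were 0 to 1 fast-fibre genes risen (1 without TG replicate 1), 1 to 2 calcium exit and entry genes risen (1 without TG replicate 2 and without WT replicate 3), 4 to 7 cytosolic genes risen (4 without TG replicate 2), 1 to 3 cytosolic genes fallen (1 without TG replicate 1 or 2 or WT replicate 1 or 3) and 1 to 2 mitochondrial uptake genes fallen (1 without TG replicate 1 or 2 or WT replicate 3). With the replicate number as a block, 2673 genes rose and 2664 fell, Sln kept its change of 6.62 (adjusted p = 4.32e-06) and no member changed its call. The numbers were not taken to pair the arrays, since deviations of same-numbered arrays from their group means correlated at -0.051, 0.031 and -0.0022. Signal over background limits the Pln probe, the second Sln probe and dim list genes.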
